A study of Homo sapiens with 4 samples.

Results

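Satellite DNA consists of short units repeated in tandem over long stretches of a chromosome, and the regions described here are those whose repeat annotation in the deposited tables has the class Satellite, outside chromosome Y. They numbered 52967 of 3814162 regions in the table of the J2 libraries, or 1.39%, and 24117 of 2310971 regions in the table of the Input libraries, or 1.04%. They carried 22 satellite names in the J2 table and 21 in the Input table. HSATII was not analysed here. The cells were NCI-H1944, an established human lung adenocarcinoma line with the genotype WT in the labels. The 4 groups, with 1 library each, were MPS1i J2, DMSO J2, MPS1i Input and DMSO Input. MPS1i stands for BAY-1217389, which blocks MPS1 (gene TTK), a kinase of the spindle checkpoint, and was given at 100 nM for 48 h and followed by 24 h of culture without the drug, and DMSO was the solvent control on the same schedule. J2 is an antibody against double-stranded RNA (dsRNA), and Input is the total RNA of 10% of the same kind of lysate.

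Alpha satellite, named ALR/Alpha in the annotation, is the AT-rich repeat on which human centromeres are built, and the protein CENPB binds some of its units at a motif called the CENP-B box. Beta and gamma satellites (BSR/Beta, GSAT, GSATII, GSATX) and the human satellites (HSATI, HSAT4, HSAT5, HSAT6) lie mostly beside centromeres or on the short arms of acrocentric chromosomes, and TAR1 lies next to telomeres. Such arrays are usually packed in heterochromatin marked by methylated DNA and methylated histone H3 and give little RNA. Where both strands of a repeat are transcribed, the transcripts can pair into dsRNA.

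Sequence of 3 regions could be read from the RefSeq table of gene starts on GRCh38.p14, and it is shown so that a counted REP522, SST1 and alpha satellite stretch can be seen. Each line gives 300 bases on the minus strand, 5′ to 3′, and the capitals mark the bases that lie in a counted region. The first window is chr15:21262908-21263207 and shares 71 bases with a REP522 region, the second is chr21:10119441-10119740 and shares 73 bases with an SST1 region, and the third is chr19:27687921-27688220 and shares 175 bases with an ALR/Alpha region.
LOC124900633: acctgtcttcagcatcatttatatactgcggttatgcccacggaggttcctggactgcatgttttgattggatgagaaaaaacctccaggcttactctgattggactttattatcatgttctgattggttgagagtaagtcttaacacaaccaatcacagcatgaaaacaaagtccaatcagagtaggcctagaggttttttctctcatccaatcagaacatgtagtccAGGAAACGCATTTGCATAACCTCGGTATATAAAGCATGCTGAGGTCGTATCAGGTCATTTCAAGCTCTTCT
LOC105372733: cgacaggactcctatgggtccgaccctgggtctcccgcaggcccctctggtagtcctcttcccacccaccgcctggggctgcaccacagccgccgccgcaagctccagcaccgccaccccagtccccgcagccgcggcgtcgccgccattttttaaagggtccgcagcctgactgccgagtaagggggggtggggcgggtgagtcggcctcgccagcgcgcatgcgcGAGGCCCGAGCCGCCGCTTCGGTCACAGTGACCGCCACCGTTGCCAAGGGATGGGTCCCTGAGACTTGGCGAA
LOC105372345: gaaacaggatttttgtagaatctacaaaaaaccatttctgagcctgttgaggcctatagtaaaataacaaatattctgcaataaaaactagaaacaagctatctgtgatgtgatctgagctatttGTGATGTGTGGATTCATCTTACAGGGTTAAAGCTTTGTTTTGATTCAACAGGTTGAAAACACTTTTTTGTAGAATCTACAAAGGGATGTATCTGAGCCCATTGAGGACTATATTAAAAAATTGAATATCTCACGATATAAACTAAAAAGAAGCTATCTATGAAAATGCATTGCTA

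The REP522 region of the first window had 78 reads in MPS1i J2 and 19 in DMSO J2, the SST1 region of the second had 30 and 47 reads in MPS1i J2 and DMSO J2, and the ALR/Alpha region of the third had 2 and 3. The SST1 window was rich in G and C, at 70.3%, and the ALR/Alpha window poor, at 32.0%, against a median of 58.7% over all 34789 windows of the table. The first window held an inverted repeat with arms of 17 bases that start at positions 93 and 170 of the printed line, in its part outside the counted region. Arms at least as long were found in 65 of 34789 windows, or 0.187%. The CENP-B box, searched on both strands as NTTCGNNNNANNCGGGN, was in none of the 3 windows and in 24 of 34789 windows, or 0.069%.

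The libraries held 4844956 to 9793355 reads in all. The lung epithelial genes KRT8, KRT18, CDH1 and EPCAM had reads in every library (KRT18 3386 in MPS1i Input and 2405 in DMSO Input). NAPSA had at most 4 reads in a library, and SFTPB and KRT19 had none in any library. Gene sums used only regions overlapping exactly 1 gene on their strand, so a sum of 0 does not show that a gene is silent. No gene of the leukocyte list had more than 12 reads. Of the fibroblast genes COL1A1 had no read in any library, COL1A2 at most 1, and FAP, a surface protease, had 260 reads in MPS1i J2 and 23 in DMSO J2. The part of these genes in the satellite values was not tested. Most regions of the tables lie outside exons, so such sums can hold intronic RNA. Its share of the reads was not measured. With 1 library per group there is no replicate and no test. Intervals are 95% counting intervals of a ratio of CPM values, which are reads scaled to the library's total, and cover counting error only, not the spread between cultures. Calls of higher or lower needed a sum of 50 reads over both libraries, a ratio of 2-fold or more and an interval without 1, for a region as for a name or a chromosome.

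Satellites as a class took a larger share of the reads after MPS1i in both fractions. They held 10998 reads (0.164%) in MPS1i J2, 12920 (0.132%) in DMSO J2, 4326 (0.0893%) in MPS1i Input and 3725 (0.0584%) in DMSO Input. The log2 ratio of MPS1i over DMSO was 0.32 in J2 (interval 0.28 to 0.35) and 0.61 in Input (0.55 to 0.68), below 2-fold in both. With regions of 10 or more summed reads alone the J2 ratio was -0.056. More satellite regions were read after MPS1i at equal depth, 2848 in MPS1i J2 against 1476 in DMSO J2, and 1082 in MPS1i Input against 839 in DMSO Input. Over all regions the numbers were 1176736 in MPS1i J2 and 1028996 in DMSO J2, also more after MPS1i. In Input they were 484849 in MPS1i and 826407 in DMSO, fewer after MPS1i. In J2, 92.7% of the satellite regions and 49.9% of all regions had 0 reads in MPS1i and DMSO alike. The repeat classes LINE, SINE and LTR lay closer to 0 in J2, with log2 ratios of -0.02, -0.15 and 0.05. Some classes with fewer reads lay farther from 0, such as Retroposon (-0.38), srpRNA (-0.54) and tRNA (0.40).

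Satellites mostly lie outside genes, and there other sequence was also higher after MPS1i. Satellite regions overlapping no gene had a log2 ratio of 0.47 in J2 and 0.82 in Input, and all other regions outside genes had 0.51 and 0.69. Satellite regions on the strand of a gene lay below 0, at -0.52 in J2 and -0.52 in Input. Other regions on the strand of a gene were also below 0 but less so, at -0.26 in J2 and -0.15 in Input. At the level of the class, satellites did not stand apart in J2 from other sequence outside genes. The part of the name and that of the place were not separated. Scaling the libraries by TMM instead of by total reads would move every J2 ratio by 0.35 and every Input ratio by -0.32 on the log2 scale. Differences between satellites within a fraction do not depend on this. As these are bulk samples, fewer cells and less RNA per cell cannot be told apart.

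**Figure D1:**
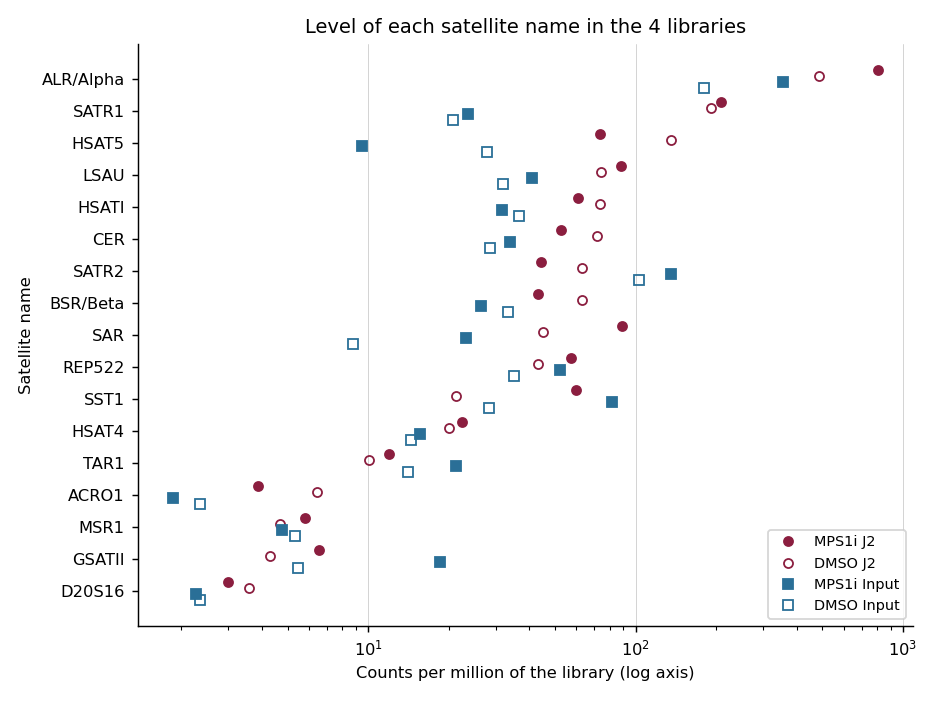
Level of each satellite name with 50 or more J2 reads, in CPM on a log axis, with 1 point per library (filled for MPS1i, open for DMSO, circles for J2, squares for Input). ALR/Alpha had the highest level in each of the 4 libraries, from 804 CPM in MPS1i J2 to 181 in DMSO Input.

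Among the centromeric names, ALR/Alpha had 5387 reads in MPS1i J2, 4760 in DMSO J2, 1728 in MPS1i Input and 1155 in DMSO Input. These correspond to 804, 486, 357 and 181 CPM. The log2 ratio was 0.73 in J2 (0.67 to 0.78) and 0.98 in Input (0.87 to 1.09), short of 2-fold in both, and without the most-read region the Input value was 1.01 and was called. GSATII, a gamma satellite, had 44 reads in MPS1i J2 and 42 in DMSO J2, and 90 in MPS1i Input and 35 in DMSO Input. Its log2 ratio of 1.76 in Input (1.18 to 2.37) was called higher, while the J2 value of 0.62 had an interval from -0.03 to 1.26. The gamma satellite GSATX had 26 reads in MPS1i Input and 9 in DMSO Input, and GSAT had 11 reads in MPS1i J2 and 0 in DMSO J2, but 4 in MPS1i Input and 12 in DMSO Input.

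SST1, a tandem repeat of pericentromeric and interstitial sites, was the name with the highest ratio in J2 among those measured and the only one called there. It had 400 reads in MPS1i J2 and 209 in DMSO J2, and 395 in MPS1i Input and 180 in DMSO Input. The log2 ratios were 1.48 (1.24 to 1.73) in J2 and 1.53 (1.27 to 1.79) in Input. Without its most-read region they were 1.74 and 1.83. SAR, a satellite found here mainly on chromosomes 4 and 8, had 596 reads in MPS1i J2 and 441 in DMSO J2, and 112 in MPS1i Input and 56 in DMSO Input. Its log2 ratio was called in Input, at 1.40 (0.92 to 1.89), and fell just short of 2-fold in J2, at 0.98 (0.80 to 1.16).

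HSAT5 moved the other way in summed reads. It had 495 reads in MPS1i J2 and 1328 in DMSO J2, and 46 in MPS1i Input and 177 in DMSO Input. The log2 ratio was -0.88 (-1.03 to -0.73) in J2 and -1.55 (-2.05 to -1.07) in Input, where it was called lower. Without its most-read region HSAT5 had -0.60 in J2 and -1.60 in Input, the latter from 11 reads in MPS1i Input and 44 in DMSO Input. HSAT5 regions with at least 1 read numbered 17 in MPS1i J2 and 21 in DMSO J2. Counted that way the J2 log2 ratio was 0.24 (-0.77 to 1.24), so the lower J2 sum came from a few well read regions. BSR/Beta had a log2 ratio of -0.54 in J2 and -0.34 in Input, and CER had -0.45 in J2 but 0.25 in Input. Beta satellite reads came largely from chromosome 19, with 201 in MPS1i J2 and 583 in DMSO J2.

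The remaining measured names had log2 ratios in J2 between -0.73 for ACRO1, a satellite of the acrocentric short arms, and 0.41 for REP522. HSATI had -0.27 in J2 and -0.22 in Input, LSAU 0.25 and 0.36, SATR1 0.13 and 0.18, HSAT4 0.15 and 0.12, TAR1 0.24 and 0.59, and MSR1 0.31 and -0.17. Without its most-read region REP522 had 1.15 in Input, against 0.57 with it, and CER had -0.18 in J2. SATR2 had -0.51 in J2 and 0.40 in Input, and without its most-read region -0.36 and -0.28. SATR1 had -0.19 in J2 without its most-read region and ACRO1 -1.01, which was called lower. D20S16 had -0.26 in J2 and 0.01 without its most-read region. With TMM factors HSATI (0.08) and D20S16 (0.09) lay above 0 in J2, and CER (-0.07), HSAT4 (-0.20) and SATR1 (-0.15) below 0 in Input. The pentamer repeat (CATTC)n had 25 reads in MPS1i Input and 4 in DMSO Input, but 2 reads in each J2 library.

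Of 17 names measured in J2, 1 was called higher and 0 lower, where 4.95% of all 1232 repeat names of the table were called higher and 3.98% lower. Of 15 names measured in Input, 3 were called higher (SST1, SAR and GSATII) and 1 lower (HSAT5), where 6.41% of all 1124 repeat names were called higher and 3.2% lower. The median log2 ratio over the satellite names was 0.15 in J2 and 0.36 in Input, against 0.04 and 0.11 over all repeat names. With TMM factors 3 names, ALR/Alpha, SAR and SST1, were called higher in J2.

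**Figure D2:**
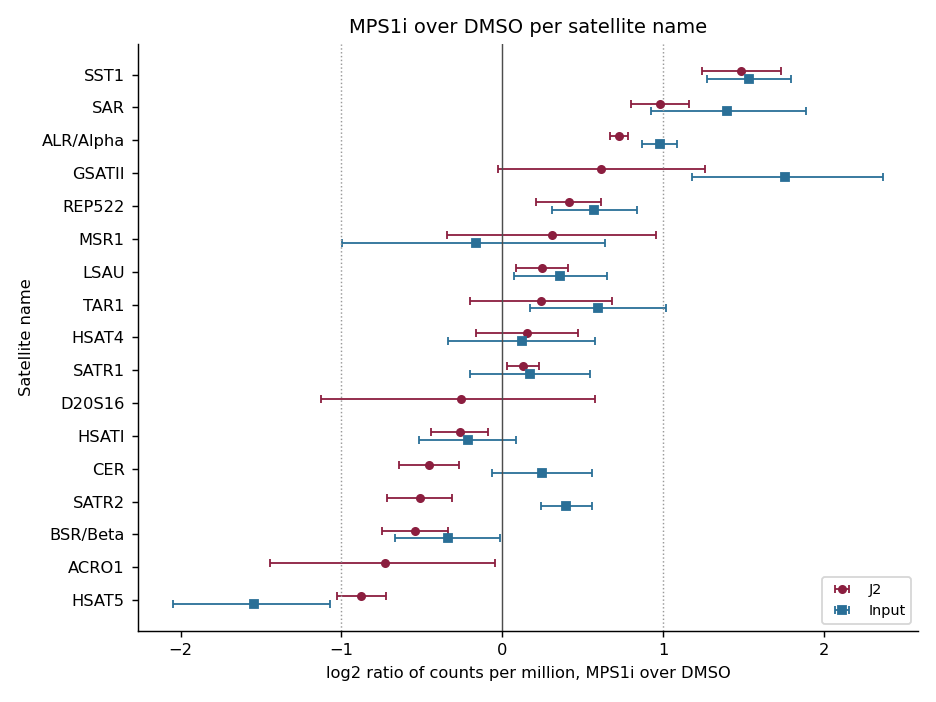
Log2 ratio of CPM, MPS1i over DMSO, for each satellite name with 50 or more reads, in J2 (circles) and Input (squares), with 95% counting intervals and dotted lines at 2-fold. SST1 lies at the top, at 1.48 in J2 and 1.53 in Input, and HSAT5 at the bottom, at -0.88 and -1.55.

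The ratio of ALR/Alpha as a whole combined chromosomes that behaved very differently. On chromosome X it had 106 reads in MPS1i J2 and 1 in DMSO J2, on chromosome 10 it had 183 and 7 reads in MPS1i J2 and DMSO J2, and on chromosome 18 it had 434 and 30. The log2 ratios were 7.28 (4.77 to 12.6), 5.26 (4.18 to 6.59) and 4.40 (3.87 to 4.99). Chromosomes 12 (3.66), 11 (3.63), 3 (3.38), 8 (2.94), 16 (2.10), 20 (2.05), 7 (1.59), 1 (1.57) and 22 (1.23) were also called higher in J2. Neighbours in this order overlapped in their intervals, so the order within the middle of the list was not resolved at this depth.

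Alpha satellite of a few chromosomes stayed near 0. On chromosome 2 it had 1698 reads in MPS1i J2 and 2741 in DMSO J2, a log2 ratio of -0.14 (-0.23 to -0.05), and chromosomes 19 and 21 had 0.19 and 0.16 with intervals across 0. Chromosomes 9 (0.94) and 5 (0.92) lay just below 2-fold. On chromosomes 13 and 14 alpha satellite was hardly read at all, with 2 reads in MPS1i J2 and 5 in DMSO J2 over 2771 regions on chromosome 13, and 1 and 7 reads over 2864 regions on chromosome 14. Alpha satellite copies of different chromosomes can be nearly identical, and how reads that match several copies were placed is not given, so the chromosome of a read is uncertain.

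The Input libraries, which are separate from the J2 libraries, also had more alpha satellite reads after MPS1i on most measured chromosomes. Alpha satellite had 94 reads in MPS1i Input and 24 in DMSO Input on chromosome 18 (log2 ratio 2.37), 90 and 15 on chromosome 20 (2.98), 58 and 5 on chromosome 7 (3.93) and 54 and 6 on chromosome 12 (3.57). Chromosomes 1, 3, 8 (2.43), 9 (1.31) and 22 were called higher too. Chromosome X had 40 reads in MPS1i Input and 2 in DMSO Input, which is under the minimum of 50. On chromosome 2 the value was -0.02 in Input, from 544 reads in MPS1i Input and 725 in DMSO Input.

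Of 17 chromosomes with enough ALR/Alpha reads in J2, 12 were called higher and 0 lower, where 10% of all combinations of a repeat name and a chromosome were called higher and 10.8% lower. In Input 9 of 12 chromosomes were called higher and 0 lower, where 11.1% and 7.82% of all such combinations were called higher and lower. The median log2 ratio over these chromosomes was 2.05 in J2 and 2.40 in Input, against -0.05 and 0.07 over all combinations. Other regions outside genes on the same chromosomes had medians of 0.54 in J2 and 0.63 in Input. The interval of ALR/Alpha lay above that of those regions on 14 of 17 chromosomes in J2 and 9 of 12 in Input, and below it on 1 in each, chromosome 2. Leaving out the most-read region of every chromosome gave 12 and 9 chromosomes called higher, 11 and 8 of them shared with the first count. In J2 chromosome 7 lost its call, with 21 reads in MPS1i J2 and 10 in DMSO J2, and chromosome 5 gained one, and in Input chromosome 3 lost its call and chromosome 21 gained one. With TMM factors 14 and 8 were called. Only 7 in J2 and 1 in Input were called from regions that carry a satellite on their own strand, which hold fewer reads, and 14 in J2 and 2 in Input when each region counted as 1 read at most.

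**Figure D3:**
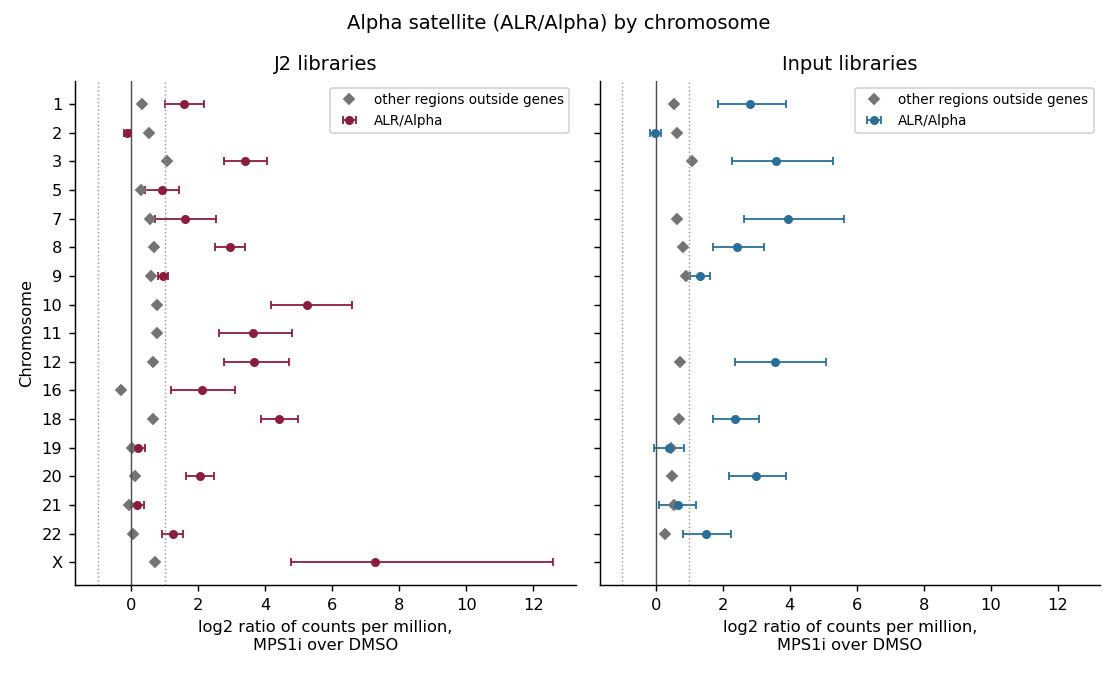
Log2 ratio of CPM, MPS1i over DMSO, of ALR/Alpha on each chromosome with 50 or more reads (circles with 95% counting intervals), and of all other regions outside genes on that chromosome (diamonds), with dotted lines at 2-fold. Chromosome X had the highest J2 ratio, 7.28, and chromosome 2 the lowest, -0.14.

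Chromosomes 2, 9, 19 and 21, which had the most alpha satellite reads in DMSO J2, weighed on the sum. They held 60.9% of the ALR/Alpha reads in MPS1i J2 and 89.2% of those in DMSO J2, and had a joint log2 ratio of 0.18. The 19 other chromosomes had 2105 reads in MPS1i J2 and 514 in DMSO J2, a log2 ratio of 2.58 (2.44 to 2.72). Because the grouping was made from DMSO J2 reads, a lower J2 ratio of the 4 chromosomes and a higher one of the 19 others are in part built in. In Input, which did not enter the grouping, the 4 chromosomes had a log2 ratio of 0.33, and the 19 others had 763 reads in MPS1i Input and 147 in DMSO Input, a log2 ratio of 2.77 (2.52 to 3.04).

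Ratios also differed with the number of reads in a region. Outside genes, thinly read regions had higher J2 ratios than well read ones, with 1.65 for regions with 1 read in all, 1.35 for 2 to 4 reads, 0.70 for 5 to 19 and 0.14 for 20 or more, leaving satellites out. ALR/Alpha on the 19 chromosomes had 2.86, 2.55, 2.12 and 2.81 in the same 4 classes, above the other regions in each. ALR/Alpha on chromosomes 2, 9, 19 and 21 had 1.30, 0.91, 0.21 and -0.15 in J2, below the other regions in each. As these chromosomes were grouped by their DMSO J2 reads, both J2 differences are in part built in, in every class. In Input the 19 chromosomes had 2.47, 2.14 and 4.17 for regions with 1, 2 to 4 and 5 to 19 reads, against -0.49, 0.50 and 1.72 for other regions outside genes. No ALR/Alpha region of the 19 chromosomes reached 20 reads in Input. On the 4 chromosomes ALR/Alpha had -0.48, -0.44, 0.93 and 0.70 in the 4 classes in Input, against -0.49, 0.50, 1.72 and 0.38 for other regions outside genes, so it was not below them in each. Alpha satellite regions with at least 1 read numbered 1132 in MPS1i J2 and 278 in DMSO J2 on the 19 chromosomes, and 819 and 654 on the 4 chromosomes.

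**Figure D4:**
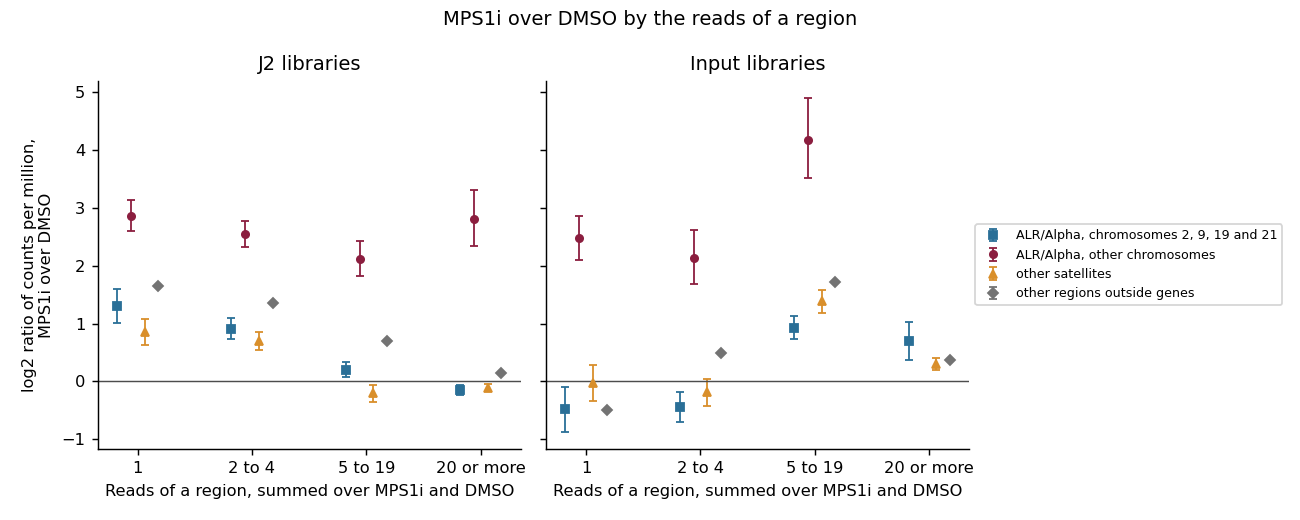
Log2 ratio of CPM, MPS1i over DMSO, for regions grouped by the reads they had in both libraries together, with 95% counting intervals. ALR/Alpha outside chromosomes 2, 9, 19 and 21 (circles) lies above other regions outside genes (diamonds) in each class of J2, from 2.12 to 2.86. These chromosomes were grouped by DMSO J2 reads, so the J2 difference is in part built in.

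Merging satellite regions less than 100 kb apart gave 401 blocks, of which 58 had 50 or more J2 reads. The block that spans the centromere of chromosome 18, chr18:15382296-20939459, had 434 reads in MPS1i J2 and 30 in DMSO J2 over 6397 regions. A block on the short arm of chromosome 9, chr9:40814802-40931614, had 426 reads in MPS1i J2 and 121 in DMSO J2, and 178 in MPS1i Input and 17 in DMSO Input. Its log2 ratios were 2.36 (2.07 to 2.67) and 3.79 (3.07 to 4.60). Another alpha satellite block of the same chromosome, chr9:64935619-65199427, had 375 reads in MPS1i J2 and 544 in DMSO J2, a log2 ratio of 0.01. Alpha satellite thus differed within a chromosome too. Of the blocks of chromosome 2, chr2:92085662-94211888 had 725 reads in MPS1i J2 and 1459 in DMSO J2 (-0.46), and chr2:94499116-94570953 had 973 and 1281 (0.15).

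Over all satellite names, 19 of 54 combinations of a name and a chromosome were called higher and 6 lower in J2, and 15 of 33 higher and 2 lower in Input. Of these, 12 calls in J2 and 9 in Input are those of ALR/Alpha, and the shares over all combinations are the 10% higher and 10.8% lower in J2 and the 11.1% and 7.82% in Input given above. Outside ALR/Alpha these include CER on chromosome 9, with 62 reads in MPS1i J2 and 21 in DMSO J2, and REP522 on chromosome 15, with 79 and 19. HSAT5 on chromosome 9 had 106 reads in MPS1i J2 and 464 in DMSO J2, and 35 in MPS1i Input and 137 in DMSO Input. Its log2 ratios, -1.58 and -1.57, were both called lower.

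Single satellite regions were called lower more often than higher in J2, as were regions at large, though not with TMM factors. Of 63 satellite regions with 50 or more reads in J2, 6 were called higher and 14 lower, where 12.5% of all regions were called higher and 27.2% lower. With TMM factors the split was 10 higher and 8 lower. Of 15 such regions in Input, 1 was called higher and 3 lower, where 16.3% and 14.4% of all regions were. The median log2 ratio of the 63 regions was -0.10, against -0.21 over all regions.

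The region with the steepest gain was alpha satellite at the long-arm edge of the chromosome 18 array, chr18:20920889-20922195 on the minus strand, intergenic with ROCK1 as the nearest gene. It had 85 reads in MPS1i J2 and 0 in DMSO J2, at least 41.4-fold higher with a floor of 3 reads in DMSO J2. The REP522 region chr15:21262560-21262978 on the minus strand, which holds the capitals of the first sequence above, had 78 reads in MPS1i J2 and 19 in DMSO J2, a log2 ratio of 2.59 (1.85 to 3.39). Its Input counterpart, chr15:21262566-21262923, had 75 reads in MPS1i Input and 11 in DMSO Input, a log2 ratio of 3.17 (2.25 to 4.23), and was the satellite region called higher in Input. SAR regions near POTEA on chromosome 8 and near CWH43 on chromosome 4 made up the other 4 calls. An example is chr4:49709079-49709986, with 113 reads in MPS1i J2 and 81 in DMSO J2 (1.03).

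The 14 regions called lower were 3 of SATR2, 3 of ALR/Alpha, 2 each of HSAT5, CER and BSR/Beta, and 1 each of SATR1 and HSATI. The HSAT5 region chr9:33597435-33598846 on the plus strand, near ANXA2P2, had 103 reads in MPS1i J2 and 459 in DMSO J2 (log2 ratio -1.61). Its Input counterpart chr9:33597976-33598823 had 35 in MPS1i Input and 133 in DMSO Input (-1.53). The counterpart is annotated as intergenic in the deposited data, but it overlaps a gene of GENCODE release 29, so its reads need not be intergenic. On chromosome 4 HSAT5 was read on both strands of nearly the same stretch. The minus-strand region chr4:49576817-49578353 had 84 reads in MPS1i J2 and 329 in DMSO J2 (-1.42), and the plus-strand region chr4:49576802-49578351 had 146 and 334 (-0.65). A beta satellite region in an intron of ZNF254, chr19:24055321-24055978, had 7 reads in MPS1i J2 and 51 in DMSO J2 (-2.32). SATR2 regions in introns of FLJ43315 on chromosome 9 and of LOC100133315 on chromosome 11 had 17 and 12 reads in MPS1i J2, against 94 and 64 in DMSO J2. The ALR/Alpha regions called lower were chr9:65052877-65053533, with 14 reads in MPS1i J2 and 58 in DMSO J2 (-1.50), chr2:94171036-94175476, with 10 in MPS1i J2 and 40 in DMSO J2 (-1.45), and chr2:94187305-94187880, with 14 in MPS1i J2 and 47 in DMSO J2 (-1.20). In Input the other calls were an HSATI region in an intron of FAM230C, with 29 reads in MPS1i Input and 79 in DMSO Input, and a beta satellite region near ZNF730, with 15 and 46.

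Several of the most-read regions hardly moved. The longest of them, chr22:11832759-11870679, had 1002 reads in MPS1i J2 and 1207 in DMSO J2 (log2 ratio 0.28), and its Input counterpart chr22:11832840-11869980 had 615 reads in MPS1i Input and 589 in DMSO Input (0.46). The J2 region is named SATR1 and the Input counterpart SATR2, so the sums of these 2 names are not the same sequence in the 2 fractions. The Input counterpart also carries repeats such as AluJb, L1M3, AluSx and MER21C on its strand, so its reads need not be satellite RNA. Regions over 1000 bp were 0.176% of satellite regions in J2. They held 24.1% of the satellite reads in MPS1i J2 and 34.5% in DMSO J2. LSAU regions on chromosome 22 (326 reads in MPS1i J2 and 381 in DMSO J2) and chromosome 3 (239 and 328) had log2 ratios of 0.32 and 0.09. An alpha satellite region on chromosome 19, chr19:27726986-27727386, had 225 reads in MPS1i J2 and 319 in DMSO J2 (0.04), and the REP522 region chr22:11066212-11066417 had 131 and 162 (0.24). HSATI at chr21:10325603-10327150 had 249 and 447 reads (-0.30). CER at chr21:9098848-9101411, in an intron of TEKT4P2, was called lower, with 68 and 233 reads (-1.23).

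The strand of the reads changed for SST1. Counting regions whose own strand carries the annotated repeat, 31.0% of SST1 reads in MPS1i J2 lay on the strand of the repeat, against 71.3% in DMSO J2, and 37.2% in MPS1i Input against 75.6% in DMSO Input. The gain of SST1 came from the strand opposite the repeat, with 276 reads in MPS1i J2 and 60 in DMSO J2, a log2 ratio of 2.75 (2.34 to 3.18), and 248 in MPS1i Input and 44 in DMSO Input, a log2 ratio of 2.89 (2.43 to 3.39). On the strand of the repeat the counts were 124 in MPS1i J2 and 149 in DMSO J2 (0.28), and 147 in MPS1i Input and 136 in DMSO Input (0.51).

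The opposite-strand gain of SST1 was spread over several sites. It was 90 reads in MPS1i J2 and 8 in DMSO J2 on chromosome 9, 85 and 12 on chromosome 21, and 73 and 31 on chromosome 20, and all 3 were called higher in Input too. Opposite-strand SST1 regions with at least 1 read numbered 78 in MPS1i J2 and 31 in DMSO J2. Chosen after their values were seen, 2 of them serve as examples. The region chr21:9818825-9819327 on the plus strand near LINC01667 had 29 reads in MPS1i J2 and 0 in DMSO J2, and chr9:61857003-61857263 on the minus strand near FAM27C had 23 and 1. Their Input counterparts had 22 reads in MPS1i Input and 0 in DMSO Input, and 35 and 1.

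Beta satellite showed a shift the other way. Its reads on the strand of the repeat made up 16.3% in MPS1i J2 and 4.55% in DMSO J2, and 40.6% in MPS1i Input and 9.39% in DMSO Input. On that strand it had 47 reads in MPS1i J2 and 28 in DMSO J2 (log2 ratio 1.30), while on the opposite strand it had 242 and 588 (-0.73). ALR/Alpha was read on both strands, with 37.0% on the strand of the repeat in MPS1i J2 and 34.6% in DMSO J2, and both strands were higher after MPS1i, at 0.82 and 0.67 in J2. REP522 and HSATI were read almost wholly on their own strand and LSAU on the opposite strand.

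**Figure D5:**
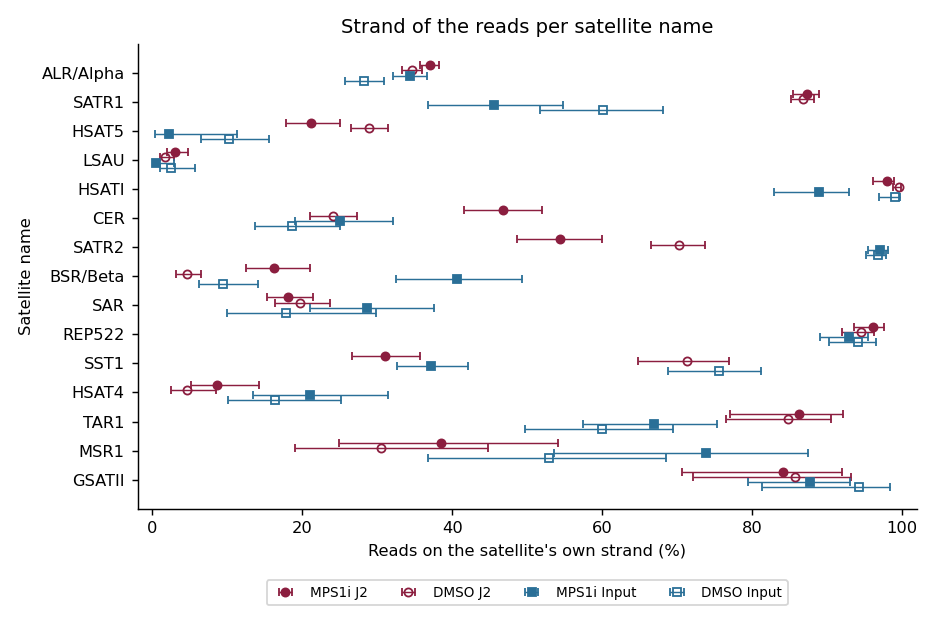
Share of reads on the strand of the annotated repeat, in percent with Wilson 95% intervals, for each satellite name with 20 or more reads in every library (filled for MPS1i, open for DMSO, circles for J2, squares for Input). SST1 separates by treatment, at 31.0% in MPS1i J2 and 71.3% in DMSO J2.

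Reads in satellite regions whose opposite strand was also read made up 35.0% in MPS1i J2 and 44.8% in DMSO J2, and 26.4% in MPS1i Input and 39.7% in DMSO Input. For ALR/Alpha these shares were 10.5% in MPS1i J2 and 19.7% in DMSO J2, and 6.25% in MPS1i Input and 9.09% in DMSO Input. Library depth enters such shares, as DMSO J2 and DMSO Input were read more deeply, and its part in them was not tested.

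Satellite RNA took a larger share of J2 than of Input in each treatment. The log2 ratio of J2 over Input was 0.88 (0.83 to 0.93) in MPS1i and 1.18 (1.12 to 1.23) in DMSO, and the change with MPS1i was -0.30 (-0.37 to -0.22). With each region counted as 1 read at most the change was 0.69 (0.54 to 0.85). With TMM factors taken within each fraction, the satellite class rose more in J2 than in Input. With TMM factors from regions matched between the fractions, J2 over Input stayed lower in MPS1i than in DMSO. The sign of the change thus depends on which regions set the scaling. The median of J2 over Input over all repeat names was also above 0, at 0.50 in MPS1i and 0.54 in DMSO. Mitochondrial reads made up 20.2% of MPS1i Input and 24.3% of DMSO Input, but 0.836% of MPS1i J2 and 0.608% of DMSO J2. Such a difference raises the ratios of all other sequence. The tables have separate regions, and satellite regions covered 7368 kb in J2 and 3004 kb in Input. Over 1262 satellite regions matched between the tables the satellite ratio was 0.07 in MPS1i and 0.36 in DMSO.

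By name, SAR had log2 ratios of J2 over Input of 1.94 in MPS1i and 2.35 in DMSO, and ALR/Alpha had 1.17 and 1.42. SATR1 had 3.15 in MPS1i and 3.19 in DMSO, but 1.51 and 1.70 without the most-read region of each table, which in J2 is the long chromosome 22 region named SATR2 in Input. HSAT5 had 2.95 and 2.29, and 4.63 and 3.67 without its most-read region in each table. LSAU had 1.11 and 1.22, and 6.26 and 4.91 without its most-read regions, where its Input sums were 2 reads in MPS1i and 7 in DMSO. SST1 lay below 0, at -0.45 in MPS1i and -0.40 in DMSO, and TAR1 at -0.83 and -0.48. In MPS1i 5 of 17 names were called higher in J2 and 2 lower (GSATII and SATR2), where 18.8% and 4.44% of all repeat names were. The SATR2 value, -1.62, turned to 2.22 (1.76 to 2.68) without the most-read region of each table. In DMSO 7 were called higher and 0 lower, where 20.9% and 3.25% of all names were.

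The change of enrichment with MPS1i was called lower for 1 name, GSATII (-1.13), and higher for 0, where 3.93% of all names were called higher and 6.07% lower. Without its most-read region GSATII had -0.74 and was not called. SST1 had a change of -0.05 (-0.40 to 0.30). By chromosome, alpha satellite on 10 (2.29, 0.61 to 3.97) and 18 (2.04, 1.20 to 2.87) gained more in J2 than in Input. On chromosomes 1 (-1.19, -2.25 to -0.12) and 7 (-2.24, -3.75 to -0.73) it gained less. Chromosome 10 had only 7 reads in DMSO J2 and 5 in DMSO Input, and chromosome 7 had 5 in DMSO Input. The regions also differ between fractions, with 111 in J2 and 339 in Input on chromosome 7. The share of such changes over all combinations was not computed, and their size depends on the scaling.

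Genes whose products act on satellite chromatin were lower after MPS1i more often than higher, in sums that can hold intronic RNA. Of 16 measured genes of 19 listed for centromere chromatin, 0 were called higher and 5 lower in J2, where 15.9% of all genes were called higher and 19.6% lower. In Input 0 were called higher and 5 lower of 15, where 12.8% and 16.8% of all genes were. Their median log2 ratio was -0.80 in J2 and -0.94 in Input, against -0.20 and -0.22 over all genes, and both stay below 0 after the TMM shift given above. CENPC, which links CENPA nucleosomes to the kinetochore, had 86 reads in MPS1i J2 and 325 in DMSO J2 (-1.37), and CENPI had 80 and 283 (-1.27). CENPA itself, the histone variant of the centromere, had 1053 reads in MPS1i J2 and 2965 in DMSO J2, a log2 ratio of -0.95, short of 2-fold.

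The list of 30 genes named for satellite silencing also holds genes that do not silence. HSF1 (-1.34) and KDM4B (-1.47) are among these, and both were called lower in J2. Of the 30 genes, 25 were measured in J2, of which 0 were called higher and 12 lower. In Input 25 were measured, of which 0 were called higher and 14 lower. Over all genes 15.9% were called higher and 19.6% lower in J2, and 12.8% and 16.8% in Input. The medians of the listed genes were -0.81 in J2 and -1.15 in Input, against -0.20 and -0.22 over all genes. UHRF1, which brings DNA methyltransferase to replicated DNA, had 54 reads in MPS1i J2 and 583 in DMSO J2 (-2.88), and 54 in MPS1i Input and 189 in DMSO Input (-1.41). DNMT1, the maintenance methyltransferase, had log2 ratios of -1.11 in J2 and -1.38 in Input. CBX5, the heterochromatin protein HP1 alpha, had -1.85 and -1.61, and HELLS, a remodeller needed for methylation of repeats, had -1.23 and -1.63. SUV39H1, which methylates histone H3 at pericentromeres, had -0.12 and -0.27 and was not called. Whether these values bear on the satellites was not tested.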

How the data were processed

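Counts were analysed for 4 libraries of NCI-H1944 cells, 1 per group, taken from the sample titles. The deposited values are raw read counts per stranded region, per the file headers, in 2 tables with separate regions (J2 and Input). Per the submitters' processing notes, which give no versions, the tools were STAR, featureCounts, HOMER, cutadapt, Trimmomatic and Trim Galore and the build GRCh38 (hg38). The calling of regions, the removal of duplicates and the counting of reads that map to several places, which matters for repeats, are not given in the sources used. The kit was a stranded total RNA kit (SMARTer), per the labels' protocols.

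Members were the regions with an annotated repeat of class Satellite outside chromosome Y, and counts were summed per name, chromosome, strand and place. A region was put on the strand of the repeat when the column of same-strand repeats held its satellite name. Regions were placed by the genes of GENCODE release 29, and gene sums used regions overlapping exactly 1 gene on their strand. Ratios of CPM have exact (Clopper-Pearson) 95% intervals conditional on the summed count. J2 over Input and its change use the counts plus 0.5 with delta-method intervals, a minimum of 50 in J2 and 20 in Input. Shares have Wilson intervals. A count of 0 is given a floor of 3 counts in that library. Intervals and floors cover counting error only. Pairs of J2 and Input regions on 1 strand that overlap each other by 90% of their length numbered 159765.

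Calls are not tests, since each group has 1 library. Names and chromosomes with 50 or more reads are named, as are the 10 most-read J2 regions and the 5 calls in each direction and fraction with the largest bounds. The members and lists were chosen with earlier results of these data known. The grouping of 4 chromosomes, the blocks, the comparison with other regions outside genes, the classes by reads of a region and the strand split were chosen after values were seen. On simulated Poisson counts for the repeat names the calls recovered 100% of 4-fold and 98% of 2.8-fold changes in J2. The intervals held the true ratio for 94.8% of names. Such counts hold counting error only, the error the intervals are built for, so this says nothing on the spread between cultures. No column of sample values was left unused. Python 3.11.15, pandas 2.3.3, scipy 1.17.1, pyranges 0.1.4, matplotlib 3.10.9, R 4.3.3, edgeR 4.0.16 (TMM) and DESeq2 1.42.0 (median-ratio size factors) were used, the last pair for alternative scalings only. Other alternatives changed the members kept, the count minimum and the fold. The RefSeq windows were read on GRCh38.p14.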

Additional observations from a re-analysis of the deposited data

Results flagged for a closer look

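Both results here went opposite ways in J2 and Input when libraries were scaled by total reads, and the difference was not tested, since each fraction has 1 library per treatment. SATR2 had a log2 ratio of MPS1i over DMSO of -0.51 in J2 and 0.40 in Input. The Input sum includes a region on chromosome 22 with 615 reads in MPS1i Input and 589 in DMSO Input, whose J2 counterpart carries the name SATR1. Without the most-read region of each table SATR2 lay below 0 in both fractions, at -0.36 in J2 and -0.28 in Input, from 43 reads in MPS1i Input and 69 in DMSO Input. The block on chromosome 4 led by HSAT5, chr4:49513691-51741303, had a log2 ratio of -0.24 in J2, from 588 reads in MPS1i J2 and 1017 in DMSO J2, and 0.49 in Input, from 77 reads in MPS1i Input and 72 in DMSO Input. Its interval in Input ran from 0.01 to 0.98. With TMM factors, an alternative chosen after seeing the data, the block lay above 0 in both, at 0.11 in J2 and 0.17 in Input.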

How the results depend on the processing

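No paired analysis was possible because each group has 1 library and the labels give no replicate numbers, and no replicate could be left out. For the satellite class the J2 log2 ratio of 0.32 became 0.67 with TMM factors, 0.69 with median-ratio size factors, 0.26 with regions that carry a satellite on their own strand, 0.53 with regions of 1000 bp or less, -0.056 with regions of 10 or more summed counts, 1.25 with each region as 1 read at most, and 0.47 outside genes. The Input ratio of 0.61 became 0.29 (TMM), 0.25 (median-ratio), 0.54 without mitochondrial reads, 0.49 (10 or more counts) and 0.82 outside genes. Without chromosomes 2, 9, 19 and 21, an alternative chosen after seeing the data, as were those on ALR/Alpha chromosomes, the ratios were 0.69 in J2 and 0.91 in Input. J2 over Input in MPS1i, 0.88, became 1.06 (TMM), 1.00 (median-ratio), 0.57 (no mitochondrial reads), 0.72 (own strand), 0.73 (1000 bp or less), 1.08 (10 or more counts), 0.96 (without the most-read region) and 0.075 (matched regions). In DMSO 1.18 became 1.32, 1.26, 0.78, 1.06, 0.86, 1.63, 1.28 and 0.36 in the same order, and 0.23 with each region as 1 read at most. The change of -0.30 became -0.22 without mitochondrial reads, -0.13 with 1000 bp or less, -0.55 with 10 or more counts, and 0.69 with each region as 1 read at most. For J2 over Input and its change, TMM and median-ratio factors came from regions matched between the tables. With these matched factors J2 over Input stayed lower in MPS1i (1.06 with TMM, 1.00 with median-ratio) than in DMSO (1.32 and 1.26). With the TMM factors of each fraction, the J2 ratio of 0.67 lay above the Input ratio of 0.29. The sign of the change thus depends on which regions set the scaling. Called names in J2, 1 in all, became 3 with TMM or median-ratio scaling, 2 on the own strand, 2 with a count minimum of 20 and 5 at 1.5-fold. Called regions became 10, 12 and 53 in J2, from 20, on the own strand, with 1000 bp or less and with a minimum of 20, and 2 and 16 in Input, from 4, on the own strand and with a minimum of 20. ALR/Alpha chromosomes called became 7 in J2, from 12, and 1 in Input, from 9, on the own strand, which keeps fewer reads, and 2 in Input with each region as 1 read at most. Of 255 alternatives for single names 216 kept the sign. Where no construction shows it, the cause was not tested. Depth limits what can be said of names with few reads, such as GSAT, GSATX and (CATTC)n.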
